A study of Mus musculus with 7 samples.

Results

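The genes described here encode the subunits and regulators of the proteasome. They are the 44 of the 16760 genes in the deposited table whose symbol begins with Psma, Psmb, Psmc, Psmd or Psme followed by a digit. All 44 were protein-coding in the annotation. They comprise 14 constitutive subunits of the 20S core, the 3 immunoproteasome subunits, 17 subunits of the 19S cap, 5 proteins of the alternative activators and 3 chaperones that assemble the base of the cap. The remaining members are Psma8, the core subunit of the testis proteasome, and Psmc3ip, a recombination cofactor that is no proteasome subunit and entered through its symbol alone. RNA was sequenced from CD150-negative mouse cells of strain C57/B6, given as HSC (haematopoietic stem cell) in the labels. The groups were WT, with 4 libraries, and 5G2del, with 3 libraries, in which part of band 5G2 of chromosome 5 is deleted. This band is syntenic to human 7q22, a segment that is recurrently lost in myeloid malignancies, and the comparison asks what its loss does to expression. The sources used here state neither the ends, length or zygosity of the deletion nor the age of the mice. They also do not say whether each library was made from its own animal, so p-values cover only library-to-library spread, some of which may be technical.

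The proteasome degrades proteins that carry ubiquitin chains. Its 20S core is a barrel in which rings of alpha subunits gate the entrance and rings of beta subunits hold the protease sites. Interferon exchanges the constitutive catalytic subunits Psmb6, Psmb7 and Psmb5 for Psmb9, Psmb10 and Psmb8, which shifts the peptides produced toward those that MHC class I molecules present. The 19S cap recognises ubiquitin chains, removes them and unfolds the substrate with a ring of ATPases. Blood stem cells are known to be sensitive to the balance of protein synthesis and degradation.

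The upstream promoter sequences of 4 catalytic subunits are shown because transcription of the 2 kinds of subunit is under different control: Nfe2l1 acts on constitutive subunit genes through antioxidant response elements, and interferon factors act on the immunoproteasome genes. RefSeq promoter windows (GRCm38.p6) matched 37 of the 44 members. Each sequence holds the 250 bases before the RefSeq start, 5′ to 3′ on the strand of the gene. Capitals mark a match to GAS, the gamma-activated site (TTCNNNGAA), in Psmb8, to the antioxidant response element core (TGACNNNGC) in Psmb5 and Psmb6, and to the CCAAT box in Psmb9, where it lies on the opposite strand.
Psmb8: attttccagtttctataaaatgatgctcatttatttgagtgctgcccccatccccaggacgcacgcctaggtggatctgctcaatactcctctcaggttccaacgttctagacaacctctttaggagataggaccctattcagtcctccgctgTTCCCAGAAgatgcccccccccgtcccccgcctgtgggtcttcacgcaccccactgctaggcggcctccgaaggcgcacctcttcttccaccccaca
Psmb5: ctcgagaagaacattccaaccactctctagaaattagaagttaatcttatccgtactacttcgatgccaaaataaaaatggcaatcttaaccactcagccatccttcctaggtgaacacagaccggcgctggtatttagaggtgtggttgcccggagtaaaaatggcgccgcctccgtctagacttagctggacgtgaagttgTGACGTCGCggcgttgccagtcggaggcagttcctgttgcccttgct
Psmb9: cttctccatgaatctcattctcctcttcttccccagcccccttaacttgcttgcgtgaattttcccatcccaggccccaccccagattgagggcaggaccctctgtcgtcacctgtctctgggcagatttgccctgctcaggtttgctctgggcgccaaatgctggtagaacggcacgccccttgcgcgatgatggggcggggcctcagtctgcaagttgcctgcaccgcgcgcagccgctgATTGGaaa
Psmb6: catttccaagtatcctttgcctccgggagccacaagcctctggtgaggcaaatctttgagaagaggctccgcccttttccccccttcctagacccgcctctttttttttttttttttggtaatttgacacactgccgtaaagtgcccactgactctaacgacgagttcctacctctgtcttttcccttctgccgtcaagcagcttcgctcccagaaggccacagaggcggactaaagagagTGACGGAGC
The windows lie at chr17:34197945-34198194 on the plus strand for Psmb8, chr14:54617996-54618245 on the minus strand for Psmb5, chr17:34187331-34187580 on the minus strand for Psmb9 and chr11:70525107-70525356 on the plus strand for Psmb6. The RefSeq start differs from the outermost GENCODE start by 474 bases in Psmb8 and by 434 bases in Psmb9, so transcripts that start elsewhere have other upstream sequence. Both strands of each 300-base window, which reaches 50 bases past the start, were searched. The antioxidant response element core was present in 6 of the 37 members (Psmb5, Psmb6, Psmc6, Psmd12, Psmd9 and Psme4), or 16.2%, against 12.4% of all 32851 windows and 14.4% of the 13760 windows of genes in the deposited table. GAS was present in Psmb8 and Psmd2, or 5.41%, against 8.30% of all windows and 6.80% of those of genes in the table. The core of the interferon-stimulated response element, GAAA, any 2 bases and GAAA again, was present in Psmb3, Psmd4, Psmd9 and Psme1, or 10.8%, against 3.44% of all windows and 3.205% of those of genes in the table. The window of Psmd9 lies 58777 bases from its outermost GENCODE start. The CCAAT box was present in 14 members, or 37.8%, against 37.4% of all windows and 37.8% of those of genes in the table. The window of Psmb10, the remaining immunoproteasome gene, held no match to any of the motifs searched. None of the 3 immunoproteasome windows held the interferon-stimulated response element core. A base can belong to a match of more than 1 of these motifs. These matches describe the letters in the windows.

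The measure was log2 CPM (log2 of counts scaled to library size). Libraries are named by group and letter, since the deposited columns give the group of a library but not its sample. Libraries held 37930174 to 52194274 expected counts in all, and members held 0.187% to 0.288% of them. Mitochondrial rRNA held 22.9% to 33.4% of the counts. It was highest in WT-C, where the share of the members was lowest, and lowest in 5G2del-B, where that share was highest. No member was at 0 in any library, and the lowest expected count was 119, for Psma8, and 297 for the others. Cux1, a homeobox gene of the band, on chromosome 5 at 136248135 to 136567490 (mm10), was at 6.80 to 8.01 log2 CPM in 5G2del and 8.17 to 8.59 in WT, in the direction of the label. The deletion libraries were unequal in Cux1. The value of 8.01 belonged to 5G2del-C and was close to that of WT-C, the lowest WT library, at 8.17. For 5G2del-A and 5G2del-B the values were 7.06 and 6.80. The reason for the higher level of 5G2del-C was not tested. Kit and Cd34, which mark stem and progenitor cells, were at 7.88 to 8.48 in every library, and Slamf1, which encodes CD150, was at -2.22 to 0.65. WT-B listed 1104 genes at 0 counts, against 83 to 492 in the others. Neutrophil markers were high in 5G2del-A and WT-A: the mean of the 8 markers was 7.81 and 6.17 log2 CPM there, against 1.82 and 1.44 in the other 5G2del libraries and -0.67 to 0.32 in the other WT libraries. Lcn2 and Ltf were at 0 counts in WT-B. In bulk RNA, fewer cells of a type and less RNA per cell cannot be told apart.

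No proteasome gene passed the test between 5G2del and WT, and neither did any other gene (limma-trend, adjusted p under 0.05 over all genes, 0 of 44 members, 0.0% of 16760 genes). Differences were small: the median log2 fold change of the members, 5G2del over WT, was 0.13, against 0.03 for all genes, and the largest in size was 0.49, for the ATPase gene Psmc4. Fitted values were positive for 34 members and negative for 10, where 53.3% of all genes and 52.5% of the 6353 genes whose mean log2 CPM exceeded 4 were positive. At an unadjusted p under 0.05, 1 member was higher in 5G2del (1.68% of all genes) and 0 were lower (2.24%), which makes 1 in either direction (3.91%). The groups did not overlap for 3 members that were higher in 5G2del, Psmc3, Psmc4 and Psme3 (2.92% of all genes), and for 0 that were lower (2.78%), or 3 in either direction (5.7%). The adjusted p of the members was 0.989 or higher. The authors' deposited table called 0 members at an adjusted p under 0.05 and 1 at an unadjusted p under 0.05, where 3.73% of all genes had such a p. The standard errors of the members' log2 fold changes ran from 0.16 to 0.38, with a median of 0.21.

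**Figure D1:**
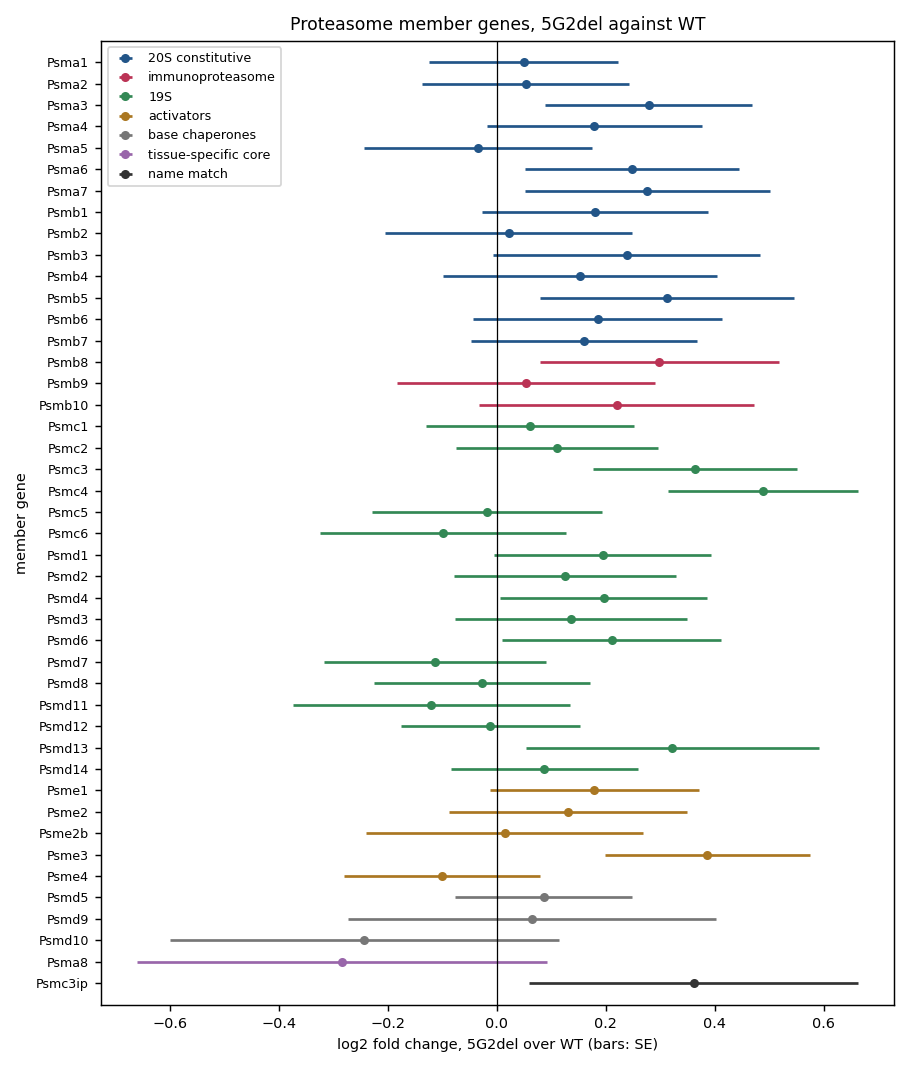
Log2 fold change of each of the 44 member genes, 5G2del over WT, with bars for the standard error of the limma-trend fit and colours for the class of subunit (3 5G2del and 4 WT libraries). Most points lie right of 0, 34 against 10 on the left, and none passed the test.

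Among the 14 constitutive 20S genes, fitted values were positive for 13, with a median log2 fold change of 0.18 and a range of -0.03 to 0.31; none passed the test. The 7 alpha ring genes, whose products form the outer rings and the gate, had a median of 0.18, with 6 positive. The 4 structural beta genes Psmb1 to Psmb4 were all positive, with a median of 0.17, and so were the 3 constitutive catalytic genes, with a median of 0.18. Psmb2 kept its sign in 10 of 15 alternative settings, Psmb4 in 13 and Psmb6 in 14. Psmb5 encodes the subunit with chymotrypsin-like activity. Its log2 CPM in the order of the letters was 5.09, 6.11 and 5.82 in the 5G2del libraries and 5.33, 5.18, 5.38 and 5.55 in the WT libraries, the order kept below. The lowest library of all was 5G2del-A and the 2 highest were 5G2del-B and C, so the groups overlapped; the log2 fold change was 0.31 ± 0.23 (SE, 3 against 4 libraries), and it was 0.60 without 5G2del-A and 0.0946 without 5G2del-B. Psma5, an alpha ring subunit, had the lowest fold change of the class. It was at 5.28, 5.69 and 5.69 in 5G2del and at 5.18, 5.92, 5.50 and 5.75 in WT, with the highest and the lowest library both in WT, and the log2 fold change was -0.03 ± 0.21.

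The level of the 20S genes differed more between libraries of a group than between the groups. The mean over the 14 genes was 5.66, 6.15 and 6.13 log2 CPM in 5G2del and 5.44, 5.95, 5.89 and 5.995 in WT, or 5.98 ± 0.28 (SD, n = 3) against 5.82 ± 0.26 (SD, n = 4). WT-A was the lowest library for 13 of the 14 genes, Psmb5 being the exception, and 5G2del-A was below the gene's own mean for all 14. Without WT-A, 8 of the 14 genes had a positive fold change and the median was 0.04. Without 5G2del-A, all 14 did and the median was 0.35. Both libraries also held the highest neutrophil marker levels, given above, and the part of those cells in the result was not tested.

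**Figure D2:**
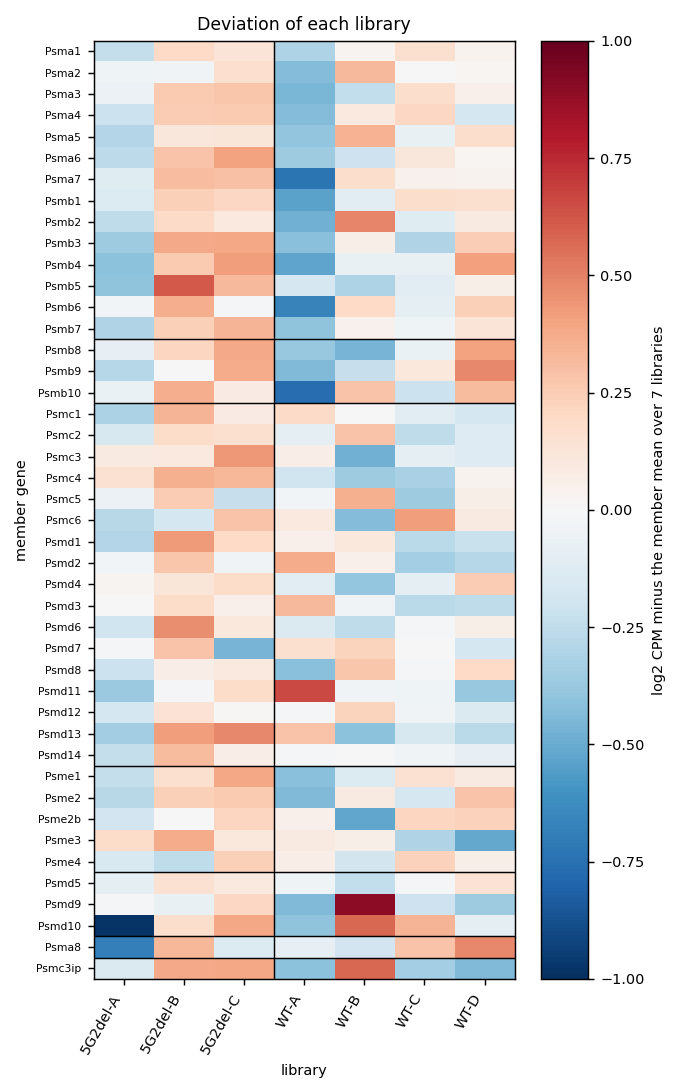
Deviation of each member gene (rows, grouped by class with lines between classes) in each library (columns, 5G2del left of the vertical line and WT right of it) from its mean over the 7 libraries, in log2 CPM; red is above and blue below. In WT-A the 14 constitutive 20S genes at the top are all below their mean, while 8 of the 17 genes of the 19S cap are.

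WT-A also differed from the other libraries by transcript length. The longest annotated transcript had a median length of 1220 bases among constitutive 20S genes, 1983 among 19S genes and 1907 among immunoproteasome genes. Over protein-coding genes whose mean log2 CPM exceeded 4, the median deviation of the 508 genes with transcripts under 1500 bases, less that of the 4107 genes over 3000 bases, was -0.63 in WT-A. It was -0.12, 0.20 and 0.27 in 5G2del-A, B and C and 0.04, 0.08 and 0.16 in WT-B, C and D. Short transcripts were thus lower than long ones in WT-A, and to a lesser extent in 5G2del-A. Across the 6142 genes, the Pearson correlation of the deviation with log2 length was 0.51 in WT-A, and across the 44 members it was 0.39. In the other libraries it ran from -0.32 (5G2del-C) to 0.12 (5G2del-A) across the genes. Across the members it ran from -0.44 (5G2del-B) to 0.22 (5G2del-A), so the largest in size was in 5G2del-B and of opposite sign to WT-A. Genes of a library share its depth and preparation. The part of transcript length in the 20S values was not tested.

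The 3 immunoproteasome genes, which interferon induces, had positive fitted values between 5G2del and WT, with a median log2 fold change of 0.22, and none passed the test. Their mean was 6.12, 6.46 and 6.55 log2 CPM in 5G2del and 5.74, 6.13, 6.21 and 6.67 in WT, where the lowest and the highest library both lay. Psmb8 was at 6.42, 6.72 and 6.89 log2 CPM in 5G2del and at 6.12, 6.04, 6.44 and 6.91 in WT. WT-D was the highest library, so the groups overlapped, and the log2 fold change was 0.30 ± 0.22. Psmb9 was at 5.83, 6.12 and 6.48 in 5G2del and at 5.67, 5.88, 6.22 and 6.59 in WT, with WT-D again highest, and the log2 fold change was 0.05 ± 0.24. Its gene overlaps Tap1 on the opposite strand, and reads of the 2 cannot be told apart where the counting ignores strand, which the sources used here do not give. Psmb10 was at 6.11, 6.55 and 6.26 in 5G2del and at 5.42, 6.47, 5.97 and 6.50 in WT; WT-A was the lowest library, and the log2 fold change was 0.22 ± 0.25. Psmb8 and Psmb9 lie 9.96 kb apart on chromosome 17, and Psmb10 is on chromosome 8. Without WT-A, 1 of the 3 genes was positive, Psmb8, and the median was -0.0019.

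The catalytic subunits were then compared in pairs, each immunoproteasome gene less the constitutive gene whose place its product takes, within each library. Psmb6, the subunit with caspase-like activity, was at 5.97, 6.37 and 5.98 log2 CPM in 5G2del and at 5.33, 6.20, 5.91 and 6.24 in WT (log2 fold change 0.18 ± 0.23). Psmb7, with trypsin-like activity, was at 5.16, 5.70 and 5.79 in 5G2del and at 5.05, 5.50, 5.41 and 5.59 in WT (0.16 ± 0.21). In both genes WT-A was lowest and the groups overlapped. Psmb8 less Psmb5 was 1.34, 0.61 and 1.07 on the log2 scale in 5G2del and 0.80, 0.85, 1.06 and 1.36 in WT, or 1.01 ± 0.37 (SD, n = 3) against 1.02 ± 0.25 (SD, n = 4). The difference of -0.01 was smaller than the spread in either group (two-sided exact permutation p = 0.943; adjusted over the 3 pairs, 0.943). Psmb9 less Psmb6 was 0.04 ± 0.41 against 0.17 ± 0.32, a difference of -0.13 (exact permutation p = 0.629, adjusted 0.943). Psmb10 less Psmb7 was 0.76 ± 0.26 against 0.70 ± 0.29, a difference of 0.06 (exact permutation p = 0.8286, adjusted 0.943). With 35 ways to split the 7 libraries, the smallest p the design allows is 0.0286. No shift between the kinds of catalytic subunit was detectable with this spread, and the signs of the differences turned in each pair when single libraries were left out.

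**Figure D3:**
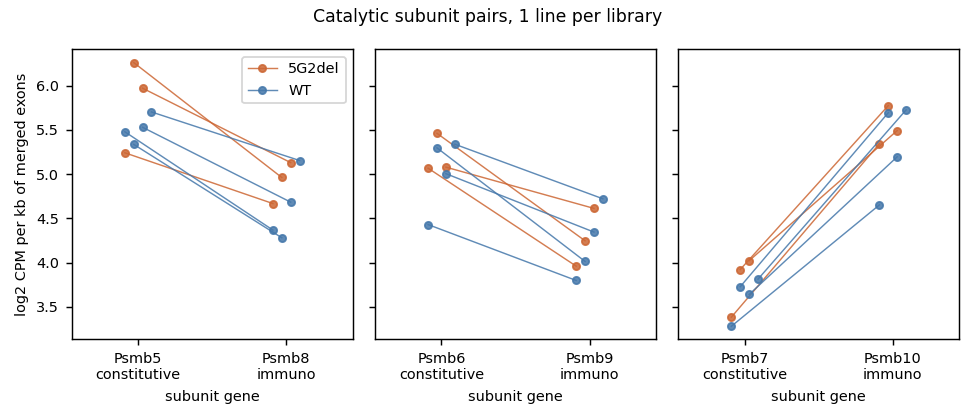
Level of each constitutive catalytic gene and of the immunoproteasome gene of its pair, in log2 CPM per kb of merged exons, with 1 line per library joining the pair (3 5G2del in orange, 4 WT in blue). The lines of the groups are interleaved in all 3 pairs, and Psmb10 lies above Psmb7 in every library.

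Of the 17 genes of the 19S cap, 11 had positive fitted values and 6 negative, with a median log2 fold change of 0.11 and a range of -0.12 to 0.49; none passed the test. The 6 ATPase genes of the base, whose products form the ring that unfolds substrates, had 4 positive values. Psmc4 was at 5.28, 5.48 and 5.46 log2 CPM in 5G2del and at 4.93, 4.77, 4.81 and 5.17 in WT. All 3 5G2del libraries were above the 4 WT libraries, and the log2 fold change of 0.49 ± 0.17, or 1.40-fold, had an adjusted p of 0.989 (limma-trend). It was the only member with an unadjusted p under 0.05, here and in the authors' deposited table. Leaving out each library in turn gave log2 fold changes of 0.44 to 0.57, and the unadjusted p was no longer under 0.05 without 5G2del-B or without 5G2del-C. Psmc3, another ATPase, was at 5.37, 5.38 and 5.71 in 5G2del and at 5.34, 4.80, 5.19 and 5.15 in WT, again without overlap, though the gap between 5G2del-A and WT-A was small next to the spread; its log2 fold change was 0.36 ± 0.19. Psmc3 overlaps Slc39a13 on the opposite strand. The other ATPase genes, Psmc1, Psmc5 and Psmc6, had log2 fold changes of 0.06, -0.02 and -0.10.

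Psmc2 is the ATPase gene whose human counterpart lies in 7q22. In mouse it is on chromosome 5 at 21785283 to 21803787, 114 Mb from Cux1, outside band 5G2. It was at 5.26, 5.61 and 5.58 log2 CPM in 5G2del and at 5.33, 5.70, 5.17 and 5.29 in WT. The highest and the lowest library were both WT, and the log2 fold change was 0.11 ± 0.19. The members lie on 16 chromosomes, and apart from Psmc2 the only member on chromosome 5 was Psmd9, 13.0 Mb from Cux1. The assembly genes Psmg3 and Pomp lie on the same chromosome, 3.26 and 11.3 Mb from Cux1, and are described with the assembly factors.

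The non-ATPase genes of the base, Psmd1, Psmd2 and Psmd4, had log2 fold changes of 0.19, 0.13 and 0.20; Psmd1 and Psmd2 are the large scaffold subunits and Psmd4 is a ubiquitin receptor. The 8 lid genes, which include the deubiquitinase Psmd14, divided evenly into 4 positive and 4 negative values, with a median of 0.04. Psmd11, a lid subunit, had the most negative value of the class. It was at 4.45, 4.80 and 5.00 log2 CPM in 5G2del and at 5.48, 4.78, 4.77 and 4.44 in WT. WT-A alone stood above the other libraries, and the log2 fold change of -0.12 ± 0.25 became 0.08 without it. The mean over the 17 genes was 5.09, 5.46 and 5.35 in 5G2del and 5.30, 5.18, 5.12 and 5.14 in WT, or 5.30 ± 0.19 (SD, n = 3) against 5.19 ± 0.08 (SD, n = 4).

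The 20S and 19S genes did not follow each other in every library. The mean of the 20S genes less that of the 19S genes, which is not corrected for length, was 0.57, 0.70 and 0.78 on the log2 scale in 5G2del and 0.13, 0.76, 0.77 and 0.85 in WT. WT-A stood apart from the other 6 libraries, and the groups otherwise overlapped. WT-A was the lowest library for 13 of 14 constitutive 20S genes and for 1 of 17 19S genes, in which it was the highest for 3. The mean of the immunoproteasome genes less that of the 20S genes was 0.46, 0.31 and 0.41 in 5G2del and 0.30, 0.18, 0.32 and 0.67 in WT, without a separation of the groups.

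**Figure D4:**
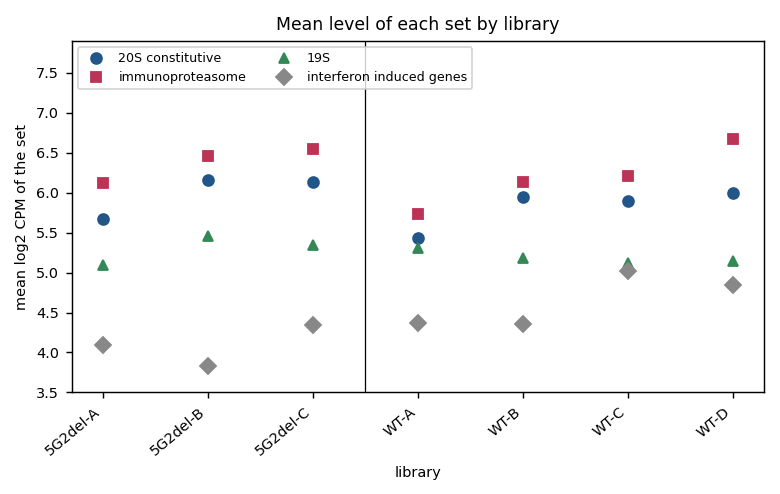
Mean log2 CPM per library of the 14 constitutive 20S, 3 immunoproteasome and 17 19S genes and of 24 interferon-induced genes (grey); the vertical line separates 5G2del from WT. The 20S and 19S means nearly meet in WT-A, and the interferon-induced genes are lowest in 5G2del-B, where the immunoproteasome mean is 6.46.

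The activators bind the ends of the 20S core in place of the cap. Psme1 and Psme2 form the PA28 activator, which interferon induces and which serves antigen processing. Psme1 was at 7.69, 8.09 and 8.32 log2 CPM in 5G2del and at 7.51, 7.79, 8.08 and 8.02 in WT, and the log2 fold change was 0.18 ± 0.19 (0.04 without 5G2del-C, 0.35 without 5G2del-A). Psme2 was at 5.10, 5.62 and 5.64 in 5G2del and at 4.94, 5.47, 5.21 and 5.66 in WT, and the log2 fold change was 0.13 ± 0.22 (0.0026 without WT-A, 0.31 without 5G2del-A). Both genes were lowest in WT-A, next lowest in 5G2del-A, and overlapped between the groups; they lie 5.91 kb apart on chromosome 14. Psme2b, at a log2 fold change of 0.01 ± 0.25, is uncertain like Psme2, because their transcripts were 99.4% identical over 794 aligned bases and the counting may divide reads between them. Psme2b also overlaps the measured genes Gm12185 and 9930111J21Rik1 on the same strand.

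Psme3 encodes the nuclear activator PA28 gamma. It was at 5.97, 6.15 and 5.88 log2 CPM in 5G2del and at 5.87, 5.84, 5.48 and 5.27 in WT. The groups did not overlap, though 5G2del-C and WT-A differed by less than the spread, and the log2 fold change was 0.39 ± 0.19. Psme4 encodes PA200, an activator known for roles in histone degradation. It was at 5.49, 5.39 and 5.88 in 5G2del and at 5.71, 5.46, 5.87 and 5.70 in WT, with both extremes in 5G2del, and the log2 fold change was -0.10 ± 0.18 (-0.25 without 5G2del-C, -0.0028 without 5G2del-B).

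The 3 base chaperones guide ATPase subunits into the ring and leave before the cap is complete. Psmd5, Psmd9 and Psmd10 had log2 fold changes of 0.09 ± 0.16, 0.06 ± 0.34 and -0.24 ± 0.36. Psmd10, also called gankyrin, was at 2.82 log2 CPM in 5G2del-A against 3.40 to 4.37 in the other 6 libraries, and its value became 0.18 without 5G2del-A. Psmd9 was at 4.27 in WT-B against 2.93 to 3.58 elsewhere. Psma8 was the lowest member, at 1.51 to 2.66 log2 CPM, with a log2 fold change of -0.28 ± 0.38. Psmc3ip was at 3.19 to 4.21 with a log2 fold change of 0.36 ± 0.30.

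Levels of different genes were compared per length, as log2 CPM per kb of merged exons averaged over the 7 libraries. The median was 5.00 for the constitutive 20S genes, 4.75 for the immunoproteasome genes, 4.22 for the activators and 3.67 for the 19S genes. With the longest transcript as the length, the medians in that order were 5.69, 5.58, 4.37 and 4.32. The 20S median was thus 1.33 above the 19S median, and 1.37 above it when the longest transcript of each gene set the length. Psme1 was the highest member at 6.79, and Psma8 and Psmd9 were the lowest at 0.87 and 0.52. Psma6 led the 20S genes at 5.97 and Psmb1 was their lowest at 3.46. With the longest transcript Psma6 still led them, at 6.21, but Psmb7 was their lowest, at 3.95, and Psmb1 was at 4.68. Psmb10 was above Psmb7 by 1.73 ± 0.25 (SD over 7 libraries), and Psmb9 was below Psmb6 by a mean difference of -0.86 ± 0.34. The order within the third pair depended on the length used: Psmb8 less Psmb5 was -0.90 ± 0.28 with merged exons and -0.07 ± 0.28 with the longest transcript, and with the latter the libraries ranged from -0.47 to 0.28. Psme1 exceeded Psme2 by 2.23 with merged exons and by 1.51 with the longest transcript.

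**Figure D5:**
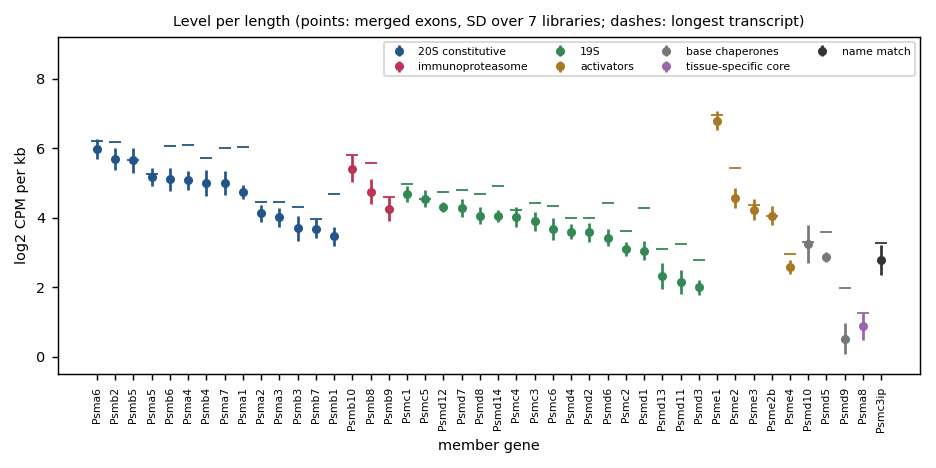
Level of each member per kb of merged exons (points, mean over the 7 libraries with SD) and per kb of its longest annotated transcript (dashes), in log2 CPM per kb, ordered within each class. The 20S genes reach from 3.46 to 5.97 and the 19S genes from 2.00 to 4.68, and Psme1 is the highest member by both lengths.

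Genes that build or serve the proteasome outside the symbol rule were examined as lists, none of which held a gene past the test. The assembly list had 8 measured genes: the alpha ring chaperones Psmg1 to Psmg4, the maturation protein Pomp, the core inhibitor Psmf1, and Akirin2 and Ipo9, which serve nuclear import of proteasomes. Of these, 7 had positive values, with a median log2 fold change of 0.28; none had an unadjusted p under 0.05. Psmg1 was at 3.68 to 4.11 log2 CPM in 5G2del and 3.19 to 3.75 in WT (0.46 ± 0.24), and Psmg3 was at 3.31 to 3.92 and 2.58 to 3.73 (0.58 ± 0.31). Both overlapped between groups, and Pomp had a value of 0.17 ± 0.20. The 8 measured partners of the cap, such as ubiquitin receptors and associated deubiquitinases, had 4 positive values and a median of 0.01. Among them Adrm1, a ubiquitin receptor, had a value of 0.29 ± 0.17, and Zfand5, a regulator of the proteasome, had -0.27 ± 0.19. The groups did not overlap for Adrm1 (2.92% of all genes, higher in 5G2del), with 5G2del-C at 4.88 and WT-A at 4.80. The 10 measured shuttle and segregase genes, which bring substrates to the cap, had 7 positive values and a median of 0.08. The chaperone Bag6 had 0.19 ± 0.15 and the shuttle Ubqln1 had 0.13 ± 0.16. For Bag6 the groups did not overlap either, but 5G2del-C and WT-A both lay at 5.55. Of 6 ubiquitin and ubiquitin-activating genes, 4 were positive, with a median of 0.10; the activating enzymes Uba6 and Uba1 had -0.37 ± 0.20 and 0.16 ± 0.15.

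The 8 regulators of proteasome transcription had 6 negative values and a median log2 fold change of -0.14. Nlrc5, the transactivator of MHC class I genes, was at 4.78, 4.54 and 4.62 log2 CPM in 5G2del and at 5.06, 5.22, 5.04 and 5.28 in WT (-0.51 ± 0.17). Stat3, a cytokine-activated factor, was at 6.39 to 6.58 in 5G2del and 6.60 to 7.13 in WT (-0.37 ± 0.16). In both, every 5G2del library was below every WT library (2.78% of all genes). For Stat3, 5G2del-A, at 6.58, was close to WT-C, at 6.60. Both genes had an unadjusted p under 0.05 (2.24% of all genes in that direction) and neither passed the adjusted test. That p was lost for Stat3 in 7 of 15 alternatives, among them those without 5G2del-B, 5G2del-C, WT-A, WT-B or WT-D, and for Nlrc5 in 2, without 5G2del-B and with total-count scaling. Nfe2l1, which drives the subunit genes when proteasome activity is low, had a value of 0.13 ± 0.17. Of the 9 genes of peptide presentation, 6 were negative, with a median of -0.0028. Tap1, a subunit of the transporter that carries proteasome products into the endoplasmic reticulum, was at 5.76, 5.42 and 6.15 in 5G2del and at 6.27, 6.19, 6.15 and 6.25 in WT (-0.44 ± 0.18), while Calr, a chaperone of MHC class I molecules, had 0.35 ± 0.20. For Tap1 the groups were all but touching, 5G2del-C and WT-C both lying at 6.15. Its unadjusted p was under 0.05 (2.24% of all genes, lower in 5G2del), but not in 6 of 15 alternatives. The log2 fold change of Tap1 was -0.26 without 5G2del-B and -0.62 without 5G2del-C.

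Of 24 interferon-induced genes, 23 had negative values, with a median log2 fold change of -0.51; 9 had an unadjusted p under 0.05 (2.24% of all genes, lower in 5G2del) and 5 had groups that did not overlap (2.78% of all genes), all lower in 5G2del, and none passed the adjusted test. The list was drawn up with earlier results of these data known, so its direction is no independent evidence. Ifi44 and Cmpk2 had the lowest p, with log2 fold changes of -1.11 ± 0.26 and -0.89 ± 0.23. The 5 interferon-inducible proteasome genes, Psmb8, Psmb9, Psmb10, Psme1 and Psme2, all had positive fitted values. Their median was 0.18 and their range 0.05 to 0.30. Psmb9 kept its sign in 12 of 15 alternatives, Psmb10 in 14, and Psmb8, Psme1 and Psme2 in all 15. The median of the constitutive 20S genes was also 0.18. The mean of the interferon-induced genes was 4.10, 3.83 and 4.34 log2 CPM in 5G2del and 4.37, 4.36, 5.02 and 4.85 in WT. All WT libraries were above all 5G2del libraries, but 5G2del-C and WT-B were close next to the SDs of 0.26 in 5G2del and 0.34 in WT. The mean of the 5 proteasome genes was 6.23, 6.62 and 6.72 in 5G2del and 5.93, 6.33, 6.38 and 6.74 in WT, with WT holding the lowest and the highest library. The difference between the 2 sets was not tested.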

How the data were processed

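Per the labels' protocols, libraries were made with the Ovation RNA-Seq System V2 kit for paired-end sequencing. STAR 2.7.9a, RSEM 1.3.0 and limma 3.50.3 are named in the submitters' processing notes, with builds mm10 and GRCh38 without a role. The authors deposited 1 table of log2 CPM per library together with, for each gene, their p-value, q-value, log2 fold change and t score. The sources used here give no strand setting, annotation or filter on low genes. Values step back to expected counts with an offset of 0.5; 71.3% were whole within 0.01, so no count model was used. A voom fit rebuilt from them matched the deposited log2 fold changes within 4.31e-14.

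The groups were compared by limma-trend (limma 3.58.1, R 4.3.3; the prior variance follows the mean level), Benjamini-Hochberg over 16760 genes, adjusted p under 0.05. Pair differences used exact permutation (SciPy 1.17.1). Positions and lengths came from GENCODE M21 (GRCm38, the same assembly as mm10), which matched all but 12 genes. Depth was 37930174 to 52194274 expected counts per library; a floor of 3 counts is 0.0538 to 0.0860 CPM and covers counting error only. RSEM divides reads among similar genes, so paralogs, and overlapping genes, are uncertain. Alternatives changed the trend, test, filter, offset and scaling, and left out each library.

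Values in every library are given for the catalytic pairs, Psme1, Psme2, Psmc2, the extremes of the 20S, 19S and activator classes and members with an unadjusted p under 0.05; of each other pathway list the 2 genes of lowest p are named. Psmc3, the chaperones, Psma8, Psmc3ip, Pomp, Nfe2l1 and the other members named were chosen after their values were seen. The members and lists were chosen with earlier results of these data known. Protein sequences were not analysed here.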

Additional observations from a re-analysis of the deposited data

Results flagged for a closer look

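Among 50 quantities (the 44 members, 3 class means and 3 pair differences), 3 had a WT library far from the others, by a gap over the range of the 4 WT libraries above Dixon's 95% critical value. The 5G2del group, with 3 libraries, was not tested, and by chance alone about 5% of quantities would be marked. Psma7, an alpha ring gene of the 20S core, was at 5.89 log2 CPM in WT-A, the lowest WT library, and the gap took 0.842 of the range. Psmc3ip, which is no proteasome subunit, was at 4.21 log2 CPM in WT-B, the highest WT library, at 0.899 of the range. Psmb9 minus Psmb6 was -0.32 on the log2 scale in WT-B, the lowest WT library, at 0.935 of the range.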

How the results depend on the processing

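No paired analysis was possible because the deposited columns carry no replicate number, so the planned block was not run. The count of members past the test was 0 under all 15 alternatives. The count over all genes was 0, except 1 without the trend and 0 to 1 when each library was left out (1 without 5G2del-C). Members higher at an unadjusted p under 0.05 numbered 1, but 0 with total-count scaling, which was chosen after seeing the data, and 0 to 3 when each library was left out: 0 without 5G2del-B or 5G2del-C, 2 without WT-D, and 3 without 5G2del-A, WT-A or WT-B. Positive members numbered 27 (without WT-A) to 41 (without 5G2del-A). Leaving out each library moved the median log2 fold change from 0.04 (without WT-A) to 0.35 (without 5G2del-A) for the constitutive 20S, from -0.0019 (without WT-A) to 0.36 for the immunoproteasome and from 0.02 to 0.22 (without 5G2del-A) for the 19S genes. The pair differences ran from -0.18 to 0.183 for Psmb8 minus Psmb5 (positive at 0.00044 and 0.0996 without WT-C and WT-D and at 0.183 without 5G2del-B), from -0.36 to 0.0116 (without 5G2del-B) for Psmb9 minus Psmb6 and from -0.0505 (without WT-A) to 0.20 for Psmb10 minus Psmb7 (-0.0398 without 5G2del-A). Of the 44 proteasome members, 25 kept the sign of their log2 fold change under all 15 alternatives. Psmb2, Psmb4, Psmd12 and Psmd14, named without a log2 fold change of their own, kept it in 10, 13, 11 and 14 of the 15. Of the genes whose own log2 fold change is given above, together with Cux1, 33 kept it and 11 did not. Among these 11, leaving out a library turned the sign for Psmc1 (-0.0916 without 5G2del-B, to 0.24), Psmc5 (-0.15 to 0.0967; 0.0054, 0.0918 and 0.0967 without 5G2del-A, 5G2del-C and WT-B), Psmc6 (-0.27 to 0.0276; 0.0123 and 0.0276 without 5G2del-A and WT-C), Psme2b (-0.157 to 0.11; -0.0876 and -0.157 without 5G2del-C and WT-B, and -0.0193 with median centring and -0.0331 with quantile normalization), Psma5 (-0.17 to 0.10; 0.10, 0.0767 and 0.0202 without 5G2del-A, WT-B and WT-D), Psmb10 (-0.0019 without WT-A, to 0.36), Psmb6 (-0.0112 without WT-A, to 0.29), Psmb9 (-0.12 to 0.22; -0.12, -0.0870 and -0.0152 without 5G2del-C, WT-A and WT-B), Psmd11 (-0.26 to 0.0833; 0.0294 and 0.0833 without 5G2del-A and WT-A), Psmd10 (-0.51 to 0.18, the latter without 5G2del-A) and Psmd9 (-0.0733 to 0.37; -0.0202, -0.0733 and -0.0444 without 5G2del-C, WT-A and WT-D). The unadjusted p under 0.05 held in 12 of 15 alternatives for Psmc4, 13 for Nlrc5, 8 for Stat3 and 9 for Tap1. Beyond the libraries left out, the causes were not tested. Members had at least 119 expected counts in each library; their counting error was not compared with the spread between libraries.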

Other observations

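Markers of other cells varied between libraries with no gene past the adjusted test. Of the measured B cell markers (3 of 5 listed), all 3 had a positive log2 fold change, with list means of 0.56 to 5.47 log2 CPM in 5G2del and -1.96 to 2.48 in WT. The T and NK cell markers (3 of 5 listed) had list means of 0.66 to 1.36 in 5G2del and 1.66 to 2.71 in WT, but the genes went opposite ways. Nkg7 was higher in every 5G2del library than in any WT library (2.92% of all genes), though 5G2del-B, at 5.34, was close to WT-A, at 5.29. Lck was lower in every one (2.78% of all genes), but 5G2del-B and WT-C both lay at 3.06. Il2rb, at 0 counts in 5G2del-A and 5G2del-B, was lower and weighs most in the mean. The 6 erythroid markers were all negative, with list means of -2.07 to 1.64 and -0.59 to 2.32. The macrophage and dendritic cell markers (5 of 7 listed) had list means of 2.01 to 2.62 and 0.72 to 2.97. The 8 stem and progenitor markers had list means of 6.10 to 6.33 and 5.66 to 6.02, with 6 positive. Slamf1, which encodes CD150, was higher in all 3 5G2del libraries than in any WT library (2.92% of all genes). Its levels were low, at 0.40 to 0.65 log2 CPM in 5G2del and -2.22 to -0.26 in WT. The 8 neutrophil markers were all positive, with a median log2 fold change of 2.15. Their part in the proteasome values was not tested.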
